A study of Mus musculus with 8 samples.

Results

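Cadherins and protocadherins were followed across the CD249+ and CD249− fibroblast fractions of the mouse lung. The members are the rows of the deposited gene table whose symbol is Cdh with a number or begins with Pcdh. Cdh5 was left out. This gave 91 of 25509 gene rows, namely 22 Cdh rows and 69 Pcdh rows, of which 57 belong to the clustered Pcdha, Pcdhb and Pcdhg groups. RNA was sequenced from 8 libraries, 4 of CD249+ and 4 of CD249− cells. Both fractions came from the digested lungs of wild-type C57Bl6/J mice, numbered 2, 7, 8 and 10. The cells lacked CD45, CD326 and CD31, and CD249-negative cells were collected from the same lung in the same number as CD249-positive ones. Neither fraction was treated, and the sources used here state neither age nor sex. CD249 is glutamyl aminopeptidase, encoded by Enpep.

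Cadherins are calcium-dependent adhesion receptors of the cell surface. Classical cadherins bind the same cadherin on a neighbouring cell through their outer repeats, and their tails hold beta-catenin and p120-catenin, which connect them to alpha-catenin and the actin cytoskeleton at adherens junctions. Type I members such as E-cadherin and N-cadherin bind strongly, and type II members such as cadherin-11 make up the junctions between mesenchymal cells. Protocadherins have more outer repeats and no catenin-binding tail of the classical kind. The clustered ones are made from arrays of variable exons on mouse chromosome 18, and each alpha or gamma variable exon is spliced to constant exons that its group shares. Beta genes have a single exon and share no constant exon. In neurons, combinations of clustered protocadherins give single cells a surface identity.

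Library totals ran from 23011383 to 31906414 estimated counts. Enpep stood at 241 ± 64.8 CPM in the CD249+ fraction and 8.98 ± 5.62 CPM in the CD249− fraction, which follows the labels. CPM are counts scaled to a common library total, here with TMM, a factor that evens out composition between libraries. A value after ± is the SD over the 4 libraries of a fraction throughout. Endothelial markers were measured in both fractions although the sort removed CD31+ cells. All 14 endothelial markers were lower in the CD249+ fraction, none was at 0, and their summed level was 4910 to 9450 CPM in the CD249+ fraction against 16300 to 21100 CPM in the CD249− fraction. All 10 alveolar fibroblast markers were higher, with a sum of 5480 to 11500 CPM in the CD249+ fraction against 491 to 967 CPM in the CD249− fraction. In bulk libraries, fewer cells of a type and less RNA per cell cannot be told apart.

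Of the 91 member rows, 67 had enough counts to be tested and 24 did not. Among these 24, Cdh7, Pcdha3, Pcdha6, Pcdha7, Pcdha8 and Pcdhb1 had no count in any library, which allows up to 0.0129 CPM over all 8 libraries (3 counts, counting error only). The other 18 had 4 to 110 counts over all libraries together. They include Cdh15, the cadherin of skeletal muscle, Cdh19, a Schwann cell cadherin, and Cdh8, Cdh9, Cdh10, Cdh12, Cdh18 and Cdh20, type II cadherins known mainly from brain.

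A member was called at an adjusted p under 0.05 from edgeR's quasi-likelihood test, with Benjamini-Hochberg adjustment over all 14524 genes tested. Of all genes tested, 30.8% were called. Higher calls in the CD249+ fraction numbered 21 of the 67 tested members (31.3%), where 16.9% of all genes tested were called higher. Lower calls numbered 3 (4.48%), where 13.9% of all genes were called lower. The median log2 fold change of CD249+ over CD249− was 0.66 for the tested members and -0.02 for all genes tested. In 18 tested members every CD249+ library was above every CD249− library, and in 4 every one was below (17.8% and 15.8% of all genes tested). These counts describe members that passed the count filter, not the full set. The higher calls numbered 13 without the CD249+ library from mouse 8, and 16, 11, 10 and 12 when mouse 2, 7, 8 or 10 was dropped. Higher calls over all genes tested also became fewer, from 2455 with all libraries. They numbered 2120 without that library, and 2333, 1791, 1777 and 1818 without mouse 2, 7, 8 or 10. With mouse as a block, 21 were higher and 4 lower, where 19.3% and 17.1% of all genes tested were called.

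The classical and type II cadherins Cdh11, Cdh22, Cdh4, Cdh6 and Cdh2 rose in the CD249+ fraction. These are 5 of the 12 tested Cdh rows (41.7%), where 16.9% of all genes tested were called higher. The remaining 7 tested rows, among them the E-cadherin gene Cdh1 and the T-cadherin gene Cdh13, were not called. No Cdh row was called lower in this fit, and 10 Cdh rows were not tested.

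Cdh11 encodes cadherin-11 (OB-cadherin), the adhesion receptor of mesenchymal cells and of fibroblasts in scar tissue. The gene lies on chromosome 8 from 102632095 to 102785642 on the minus strand (ENSMUSG00000031673.5, GRCm38). Cdh11 stood at 376, 380, 329 and 476 CPM in CD249+ libraries of mice 2, 7, 8 and 10, and at 32.5, 39.5, 32.2 and 53.9 CPM in the CD249− fraction of the same mice. The fractions were far apart in every mouse, and mouse 10 was highest in each fraction. The rise was 9.87-fold (log2 fold change 3.30, SE 0.20, adjusted p = 4.44e-06), with differences within a mouse from 3.14 to 3.53 on the log2 scale.

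Cdh4 encodes R-cadherin, a classical type I cadherin first known from retina that can also pair with N-cadherin. It stood at 65.5, 113, 99.7 and 101 CPM in CD249+ libraries of mice 2, 7, 8 and 10, and at 11, 18.2, 20.8 and 23.3 CPM in the CD249− fraction. No libraries of the fractions overlapped, and mouse 2 was lowest in both. The rise was 5.18-fold (log2 fold change 2.37, SE 0.24, adjusted p = 9.67e-05), seen in 4 of 4 mice. The gene lies on the plus strand of chromosome 2, from 179442431 to 179899373 (ENSMUSG00000000305.12, GRCm38).

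Cdh22, which encodes a type II cadherin first described in pituitary gland and brain, was low in every CD249− library. It stood at 24.0, 17.7, 25.1 and 43.1 CPM in CD249+ libraries of mice 2, 7, 8 and 10, and at 0.465, 2.07, 0.834 and 0.960 CPM in the CD249− fraction. The summed counts were 3195 in CD249+ and 125 in CD249− libraries. The mouse with the lowest CD249+ value, mouse 7, also had the highest CD249− value. The rise was 25.3-fold (log2 fold change 4.66, SE 0.46, adjusted p = 8.01e-05), and without both of its libraries from mouse 7 the log2 fold change was 5.34. The promoter window of Cdh22, 250 bases before to 50 after the RefSeq gene start (chr2:165234688-165234987, minus strand, GRCm38.p6), is shown because this was the member with the highest fold change, and that of Pcdh17 (chr14:84443313-84443612, plus strand), the member with the lowest among those called, is shown for contrast. The E-box letters CACCTG or CAGGTG (either strand), to which the SNAI and ZEB repressors of E-cadherin bind, were searched and would be in capitals, and neither window holds them.
Cdh22: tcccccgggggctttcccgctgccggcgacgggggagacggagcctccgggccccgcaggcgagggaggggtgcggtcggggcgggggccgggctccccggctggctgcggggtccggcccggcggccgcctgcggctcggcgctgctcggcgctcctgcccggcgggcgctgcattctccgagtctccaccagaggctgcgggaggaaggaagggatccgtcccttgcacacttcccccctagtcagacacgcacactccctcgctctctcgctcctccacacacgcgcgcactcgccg
Pcdh17: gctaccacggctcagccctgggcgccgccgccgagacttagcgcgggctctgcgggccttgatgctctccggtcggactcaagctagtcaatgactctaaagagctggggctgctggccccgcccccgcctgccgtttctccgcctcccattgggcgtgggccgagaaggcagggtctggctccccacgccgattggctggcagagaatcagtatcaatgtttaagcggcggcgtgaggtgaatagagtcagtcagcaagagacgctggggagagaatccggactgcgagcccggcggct

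Of 27025 genes in the RefSeq promoter table, 22.6% hold these letters in at least 1 window of the same length. Member windows on the chromosome that carries the protocadherin clusters were not read, which leaves out the clustered rows, Cdh2, Pcdh1 and Pcdh12. The share of all genes was taken without this limit. Of 22 members matched by symbol whose windows were read, 3 hold the letters, namely Cdh7, Pcdh15 and Pcdh7. Pcdh7 is the tested one of these 3 and is a protocadherin that rose. Its window (chr5:57717831-57718130, plus strand) has the letters from 32 bases past the gene start, in capitals. Cdh11, Cdh4 and Cdh1 have no entry in the table used here.
Pcdh7: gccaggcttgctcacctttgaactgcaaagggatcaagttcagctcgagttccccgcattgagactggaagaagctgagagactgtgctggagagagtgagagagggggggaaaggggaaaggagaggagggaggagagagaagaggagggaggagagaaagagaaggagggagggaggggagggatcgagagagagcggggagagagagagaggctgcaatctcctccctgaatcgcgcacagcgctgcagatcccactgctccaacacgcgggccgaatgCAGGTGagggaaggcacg

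**Figure D1:**
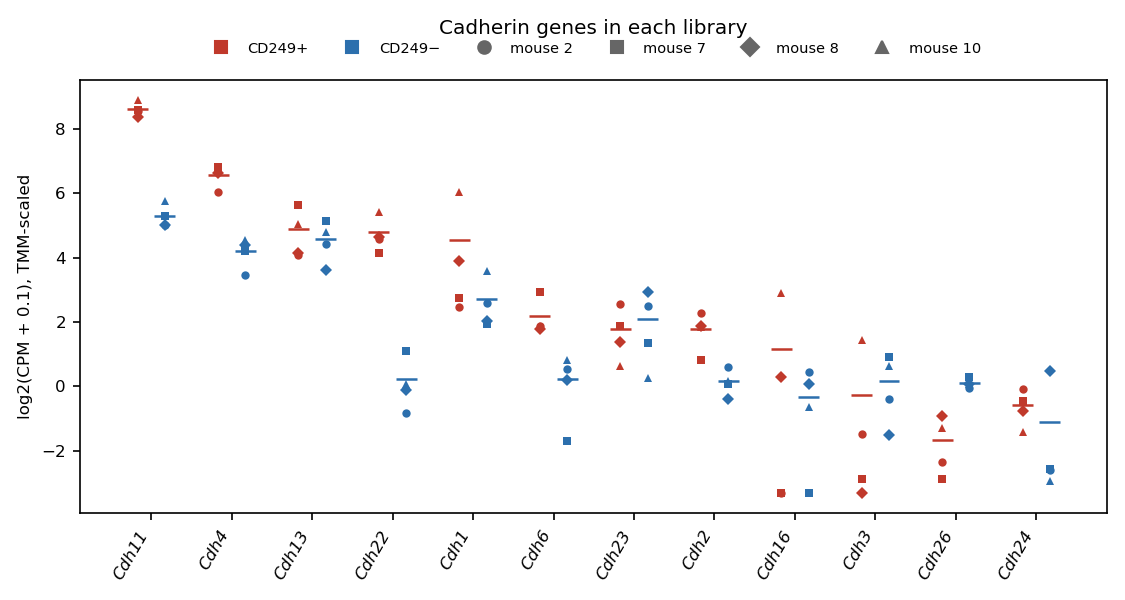
Level of each tested cadherin gene in every library, as log2(CPM + 0.1) with TMM scaling, CD249+ left of CD249− for each gene, symbols for mice and lines for the arithmetic mean of 4 libraries. Cdh11, Cdh4, Cdh22, Cdh6 and Cdh2 have all CD249+ libraries above all CD249− libraries, and Cdh1 and Cdh16 are highest in the CD249+ library from mouse 10.

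Cdh6 and Cdh2 rose at low levels. Cdh6 encodes K-cadherin, a type II cadherin of kidney and of the early nervous system, and stood at 3.56, 7.5, 3.36 and 3.6 CPM in CD249+ libraries of mice 2, 7, 8 and 10, against 1.36, 0.210, 1.04 and 1.68 CPM in the CD249− fraction. Mouse 7 had both the highest and the lowest value. The log2 fold change of Cdh6 was 2.06 (SE 0.60, adjusted p = 0.0272), and it was 1.36 without the pair of libraries of mouse 7 (adjusted p = 0.0714). The call was also lost with mouse as a block (adjusted p = 0.0545), without the CD249+ library from mouse 7, without the CD249− library from mouse 8, and without the pair of mouse 2 or 8 (adjusted p = 0.0532 to 0.0870). N-cadherin, the product of Cdh2 and the classical cadherin of neural and many mesenchymal cells, stood at 4.81, 1.66, 3.54 and 3.49 CPM in the CD249+ fraction against 1.43, 0.946, 0.667 and 1.02 CPM in the CD249− fraction. All CD249+ libraries were above all CD249− libraries, by little in mouse 7. The log2 fold change was 1.73 (SE 0.48, adjusted p = 0.0205). Its call was lost without the CD249+ library from mouse 2 or 8, without the CD249− library from mouse 7, and without the pair of mouse 2, 8 or 10 (adjusted p = 0.0507 to 0.0985).

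E-cadherin, the product of Cdh1 and the classical cadherin of epithelia, did not pass the test. Cdh1 stood at 5.40, 6.62, 14.7 and 65.8 CPM in CD249+ libraries of mice 2, 7, 8 and 10, against 5.94, 3.75, 4 and 11.9 CPM in the CD249− fraction. The CD249+ library from mouse 10 was far above the others, mouse 2 showed no rise, and the fractions overlap (log2 fold change 1.85, SE 0.77, adjusted p = 0.0994). With mouse as a block Cdh1 was called (log2 fold change 1.29, adjusted p = 0.0369), as it was without the CD249+ library from mouse 2 (adjusted p = 0.0457). The log2 fold change was 0.47 without the CD249+ library from mouse 10 (adjusted p = 0.541), 0.96 without both mouse 10 libraries (adjusted p = 0.167) and 1.19 with limma-voom (adjusted p = 0.328). The summed level of 12 epithelial markers, of which 2 were called higher, was 416, 547, 889 and 8380 CPM in CD249+ libraries of mice 2, 7, 8 and 10, and 218, 164, 175 and 738 CPM in the CD249− fraction. Most of the CD249+ sums was Sftpc, at 320, 483, 781 and 7550 CPM, while Epcam stood at 7.54, 2.27, 7.71 and 14.4 CPM. Scgb1a1 and Rtkn2 were highest in the CD249− library from mouse 10. The epithelial sum was thus highest in the same library as Cdh1, and the part of epithelial RNA in the Cdh1 values was not tested. Cdh16, a kidney and epithelial cadherin, also had its highest value there, 7.40 CPM, with 0 to 1.13 CPM in the other CD249+ libraries and 0 to 1.3 CPM in CD249− libraries (adjusted p = 0.503).

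Cdh13 encodes T-cadherin, which has no cytoplasmic tail, is held by a lipid anchor and binds adiponectin. It stood at 16.8, 50.0, 17.6 and 33.2 CPM in the CD249+ fraction and at 21.2, 34.8, 12.1 and 27.9 CPM in the CD249− fraction of mice 2, 7, 8 and 10. Mouse 7 was highest in each fraction, and the fractions overlap (log2 fold change 0.29, SE 0.40, adjusted p = 0.627). Cdh23, a component of the tip links of inner ear hair cells, ranged from 1.44 to 5.76 CPM in the CD249+ fraction and from 1.11 to 7.59 CPM in the CD249− fraction (adjusted p = 0.730). Cdh26 was at 0.0354 to 0.425 CPM in the CD249+ fraction, below the 0.863 to 1.1 CPM of CD249− cells, and narrowly missed the threshold (log2 fold change -2.15, SE 0.77, adjusted p = 0.0594). DESeq2, limma-voom and scaling by library size alone called it (adjusted p = 0.0256, 0.0446 and 0.0486). Cdh3, the P-cadherin gene, and Cdh24 stayed at or below 2.64 CPM in each library and were not called (adjusted p = 0.812 and 0.697).

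Besides the alveolar fibroblast markers, 8 of 9 pericyte markers and 6 of 7 smooth muscle markers were higher in the CD249+ fraction, the fraction in which these cadherins rose. Pericyte markers summed to 448 to 724 CPM in the CD249+ fraction against 109 to 171 CPM in the CD249− fraction, and smooth muscle markers to 885 to 1760 CPM in the CD249+ fraction against 172 to 745 CPM in the CD249− fraction. A list of 8 general fibroblast markers had 6 members higher, with sums of 14000 to 25300 CPM in the CD249+ fraction and 6180 to 13500 CPM in the CD249− fraction. No marker of these 4 lists was at 0 in all libraries. Their part in the rise of the cadherins was not tested. Of 7 tested mesothelial markers, 5 were lower and 1 higher in the CD249+ fraction. That list summed to 96.4 to 119 CPM there and to 89.2 to 237 CPM in the CD249− fraction. The higher one was Upk1b, at 62.6 ± 16.9 CPM in the CD249+ fraction and 8.87 ± 4.33 CPM in the CD249− fraction, which makes up much of the CD249+ sum. Msln, Lrrn4, Upk3b, Gpm6a and Krt19 were lower. Of 7 adventitial fibroblast markers, 2 were higher and 2 lower, with sums of 1800 to 2960 CPM against 2960 to 3590 CPM. Of 10 leukocyte and 4 nerve markers tested, 1 of each list was lower and none higher. The part of these lists was not tested either.

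The non-clustered protocadherins moved both ways. Pcdh1, Pcdh12 and Pcdh17 fell in the CD249+ fraction, and these were the only 3 of 67 tested members called lower in this fit. Pcdh18, Pcdh7 and Pcdh9 rose, and Pcdh19, Pcdh20 and Pcdh11x were not called.

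Pcdh17, a delta-2 protocadherin studied in the sorting of axons and synapses, lies on chromosome 14 (ENSMUSG00000035566.6, GRCm38, 84443563 to 84539002, plus strand). It stood at 95.9, 63.9, 55.6 and 62.7 CPM in CD249+ libraries of mice 2, 7, 8 and 10, against 196, 230, 170 and 188 CPM in the CD249− fraction. The fractions did not overlap, and CD249− levels were 2.82-fold higher (log2 fold change -1.50, SE 0.17, adjusted p = 0.000196). Pcdh1, a delta-1 protocadherin of airway epithelium and endothelium that serves as an entry receptor for New World hantaviruses, stood at 223, 113, 139 and 135 CPM in the CD249+ fraction and at 450, 282, 334 and 356 CPM in the CD249− fraction. Again no libraries overlapped, and mouse 2 was highest in both fractions (log2 fold change -1.22, SE 0.22, adjusted p = 0.00221). Pcdh12, known as vascular endothelial cadherin-2, stood at 59.8, 19.1, 36.3 and 37.0 CPM in the CD249+ fraction and at 114, 75.9, 102 and 70.9 CPM in the CD249− fraction. Each CD249+ library was below each CD249− library (log2 fold change -1.25, SE 0.30, adjusted p = 0.0106). The Pcdh12 call was lost without the pair of mouse 8 (log2 fold change -1.17, adjusted p = 0.0725).

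These 3 genes moved beside the endothelial markers. Within mice 2, 7, 8 and 10, the summed endothelial markers differed by -1.16, -1.74, -1.54 and -1.74 on the log2 scale (CD249+ minus CD249−). Pcdh17 differed by -1.03, -1.85, -1.61 and -1.59 in the same mice, and Pcdh1 by -1.01, -1.32, -1.26 and -1.40. Mouse 2 had the smallest decrease of Pcdh17, of Pcdh1 and of the endothelial sum. For Pcdh12 the values were -0.93, -1.99, -1.49 and -0.94. All 5 platelet markers also fell, with sums of 23.9 to 70.9 CPM in the CD249+ fraction against 112 to 617 CPM in the CD249− fraction. The part of endothelial or platelet RNA in the 3 decreases was not tested.

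**Figure D2:**
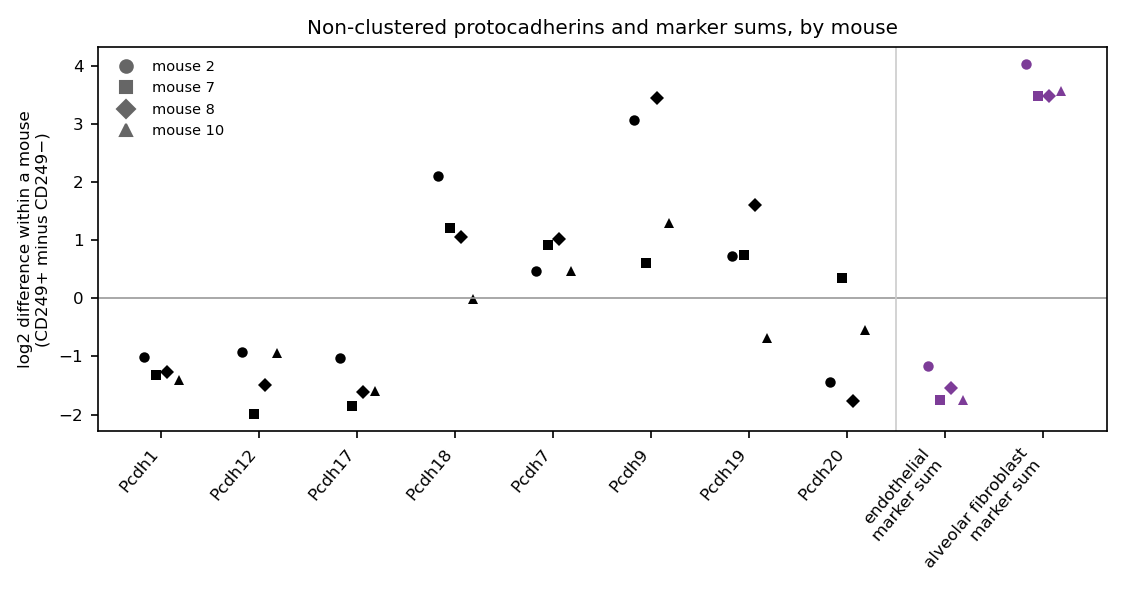
Difference within each mouse (CD249+ minus CD249−, log2 scale) for 8 non-clustered protocadherins and for the summed endothelial and alveolar fibroblast markers, with 1 symbol per mouse. Pcdh1, Pcdh12 and Pcdh17 lie between -0.93 and -1.99, next to an endothelial sum of -1.16 to -1.74, while Pcdh18, Pcdh7 and Pcdh9 lie above 0 except for Pcdh18 in mouse 10.

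Pcdh18, a delta-2 protocadherin, stood at 84.9, 81.8, 96.9 and 42.9 CPM in CD249+ libraries of mice 2, 7, 8 and 10, against 19.8, 35.3, 46.4 and 43.5 CPM in the CD249− fraction. Mice 2, 7 and 8 showed the rise, and in mouse 10 both fractions were level. The log2 fold change was 1.08 (SE 0.30, adjusted p = 0.0200), and the call was lost without the CD249+ library from mouse 8, without the CD249− library from mouse 7, and without the pair of mouse 7 or 8 (adjusted p = 0.0505 to 0.103). Pcdh19, a delta-2 protocadherin on chromosome X whose loss causes an epilepsy in humans, was measured at lower levels, 9.16, 8.81, 20.1 and 4.35 CPM in the CD249+ fraction and 5.48, 5.25, 6.55 and 7.02 CPM in the CD249− fraction. It was higher in the CD249+ fraction of mice 2, 7 and 8, and was not called (log2 fold change 0.80, SE 0.40, adjusted p = 0.162), except without the CD249+ library from mouse 10 (adjusted p = 0.0416).

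Pcdh7, a delta-1 protocadherin, stood at 27.3, 60.5, 41.9 and 40.6 CPM in CD249+ libraries of mice 2, 7, 8 and 10, against 19.6, 31.9, 20.6 and 29.3 CPM in the CD249− fraction. It was higher in 4 of 4 mice by 0.47 to 1.03 on the log2 scale, and was the called member closest to the threshold (log2 fold change 0.75, SE 0.25, adjusted p = 0.0433). Its call was lost with library size alone, with limma-voom, without the CD249+ library from mouse 7, 8 or 10, without the CD249− library from mouse 2, 8 or 10, and without the pair of mouse 7, 8 or 10 (adjusted p = 0.0559 to 0.171). Blocking by mouse kept the Pcdh7 call (log2 fold change 0.72, adjusted p = 0.00342). Pcdh9, another delta-1 member, stood at 6.88, 5.88, 12.9 and 11.2 CPM in the CD249+ fraction and at 0.764, 3.85, 1.13 and 4.53 CPM in the CD249− fraction. The rise was seen in 4 of 4 mice and was smallest in mouse 7 (log2 fold change 1.84, SE 0.56, adjusted p = 0.0330). The call was lost without the CD249+ library from mouse 8 or 10, without the CD249− library from mouse 2 or 8, and without the pair of any mouse (adjusted p = 0.0503 to 0.163). Pcdh20 ranged from 1.35 to 2.34 CPM in the CD249+ fraction and from 1.82 to 6.63 CPM in the CD249− fraction, and was not called (adjusted p = 0.130). Pcdh11x ranged from 0.0329 to 2.09 CPM in the CD249+ fraction and from 0.876 to 1.53 CPM in the CD249− fraction (adjusted p = 0.636).

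Levels of different genes were set beside each other as CPM per kilobase of annotated exon. Among the 21 tested members outside the clusters, Cdh11 came first in the CD249+ fraction at 43.8 ± 6.94 CPM per kilobase. Pcdh1, Pcdh18 and Cdh4 followed at 17.3 ± 5.51, 14.3 ± 4.36 and 13.1 ± 2.84, where Pcdh1 and Pcdh18, and Pcdh18 and Cdh4, did not differ beyond their SD. In CD249− cells Pcdh1 came first at 40.4 ± 7.94 CPM per kilobase, followed by Pcdh17 at 15.1 ± 1.94 and Pcdh12 at 14.9 ± 3.38, which did not differ beyond their SD. Cdh11 was the fifth there, at 4.44 ± 1.14. The order is descriptive, since exon lengths are those of GENCODE M21 and not of the isoforms these cells use.

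The clustered protocadherins have 57 rows, 46 of them tested, and 13 rose and none fell in this fit (28.3% called higher, against 16.9% of all genes tested). At an unadjusted p under 0.05 there were 18 clustered rows, but the share of all genes at that threshold was not taken, so this count cannot be compared. With DESeq2, Pcdhb10, Pcdhga6 and Pcdhga9 were added to the higher calls and Pcdhac2 was called lower. The fit with mouse as a block also had 13 clustered members higher, with Pcdhgb5 added and Pcdhb22 lost, and Pcdhac2 lower. In the fit without the block, the Pcdhb and Pcdhg groups held all 13 calls, 7 and 6. Where estimated counts divide reads among rows that share constant exons, as in the alpha and gamma groups, values of single rows are uncertain. Beta rows share no constant exon, but the annotated genes Gm37013, Gm37388 and Gm42416 overlap each of them on the same strand. Pcdhb21 and Pcdhb22 also overlap each other. Whether reads of beta rows were divided was not tested.

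Summed over rows, the Pcdhg group stood at 753, 758, 728 and 918 CPM in CD249+ libraries of mice 2, 7, 8 and 10, against 496, 448, 423 and 436 CPM in the CD249− fraction. The Pcdhb group stood at 216, 216, 171 and 255 CPM in the CD249+ fraction and at 95.0, 97.6, 96.7 and 106 CPM in the CD249− fraction. For both groups every CD249+ library was above every CD249− library, with ratios of the means of 1.75 and 2.17. The Pcdha group had a lower sum in the CD249+ fraction in each mouse, with 46.5, 20.2, 26.2 and 26.8 CPM against 74.5, 52.0, 28.4 and 50.6 CPM in the CD249− fraction, a ratio of 0.583. No test was made on these sums.

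**Figure D3:**
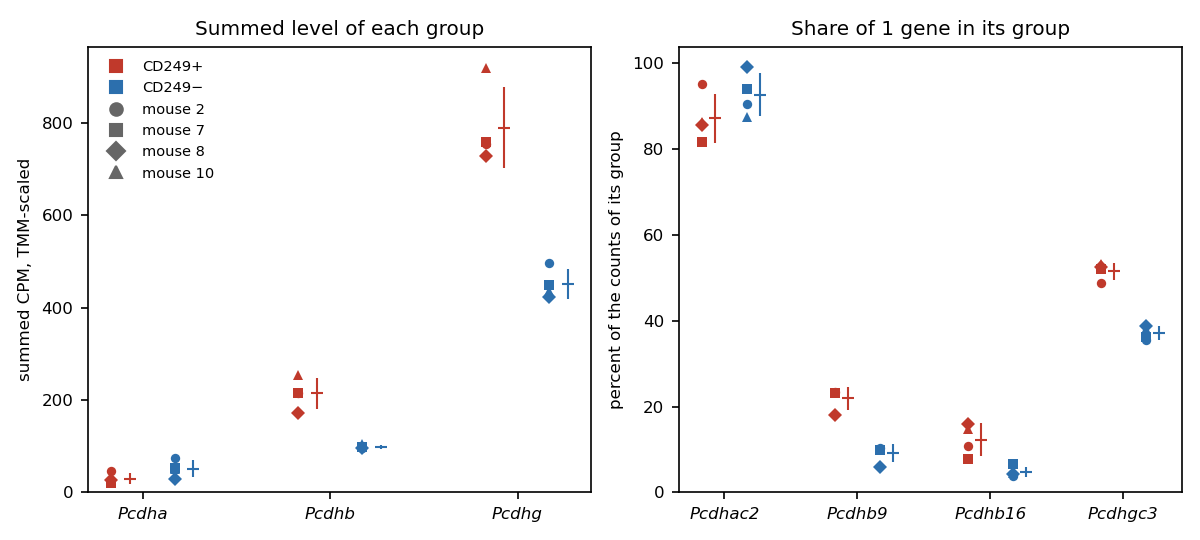
Left, summed CPM of the Pcdha, Pcdhb and Pcdhg rows in each library. Right, the share of its group's counts taken by Pcdhac2, Pcdhb9, Pcdhb16 and Pcdhgc3. CD249+ is left of CD249−, symbols are mice, and bars give the mean and SD of 4 libraries. The Pcdhb and Pcdhg sums and the shares of Pcdhb9, Pcdhb16 and Pcdhgc3 are higher in every CD249+ library than in any CD249− library.

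Among gamma genes, Pcdhgc3 stood apart. It is a C-type gene, one of those at the end of the alpha and gamma arrays, and in neurons C-type genes are made by most cells and not chosen at random. Pcdhgc3 stood at 367, 394, 382 and 488 CPM in CD249+ libraries of mice 2, 7, 8 and 10, against 176, 162, 164 and 166 CPM in the CD249− fraction. The CD249− libraries were close to each other, and each CD249+ library was far above them (2.44-fold, log2 fold change 1.29, SE 0.11, adjusted p = 2.99e-05). Pcdhgc3 took 51.6% ± 1.94 of the Pcdhg counts in the CD249+ fraction and 37.1% ± 1.56 in the CD249− fraction. The other C-type row called was Pcdhgc5, at 5.1 to 13.6 CPM in the CD249+ fraction against 1.92 to 5.29 CPM in the CD249− fraction. It was higher in 3 of 4 mice, all but mouse 7 (log2 fold change 1.45, SE 0.41, adjusted p = 0.0231). Its call was lost without the CD249+ library from mouse 8 or 10, without the CD249− library from mouse 2, and without the pair of mouse 2, 8 or 10 (adjusted p = 0.0584 to 0.118).

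Of the A and B kinds, 4 gamma genes rose by less. Pcdhga7 stood at 16.3 to 32.7 CPM in the CD249+ fraction and 9.35 to 11.7 CPM in the CD249− fraction (log2 fold change 0.99, SE 0.24, adjusted p = 0.0103). Pcdhgb6, the second most abundant gamma row, stood at 78.5, 67.6, 70.6 and 85.7 CPM in CD249+ libraries of mice 2, 7, 8 and 10, and at 58.4, 59.4, 42.8 and 48.8 CPM in the CD249− fraction (log2 fold change 0.53, SE 0.13, adjusted p = 0.0121). Neither of these overlapped between the fractions, and the Pcdhgb6 call was lost without the pair of mouse 10 (adjusted p = 0.0863). Pcdhga11 rose by 0.75 and Pcdhgb7 by 0.67 on the log2 scale (adjusted p = 0.0228 and 0.029), with overlap. The Pcdhga11 call was lost without the CD249+ library from mouse 7 or 8, the CD249− library from mouse 8, or both libraries of mouse 7 or 8 (adjusted p = 0.0525 to 0.111). The Pcdhgb7 call was lost with library size alone, without the CD249+ library from mouse 2 or 10, without the CD249− library from mouse 2, 8 or 10, and without the pair of mouse 2, 8 or 10 (adjusted p = 0.0555 to 0.169). Pcdhgb2, at 36.2, 36.6, 23.8 and 47.4 CPM in the CD249+ fraction and 42.3, 37.6, 43.2 and 36.5 CPM in the CD249− fraction, was the single gamma row with a negative value (log2 fold change -0.15, adjusted p = 0.584). The other 14 gamma rows had values from 0.08 to 0.93 and were not called. Of these, Pcdhgb5 was called with mouse as a block (log2 fold change 1.16, adjusted p = 0.0238) and when mouse 8 was dropped (adjusted p = 0.0183). Pcdhga9 was called by DESeq2 (adjusted p = 0.0481) and when mouse 2 was dropped (adjusted p = 0.0429). The row ENSMUSG00000023036.14 is named Pcdhga8 in the deposited table and Pcdhgc4 in GENCODE M21, and was not called under either name (adjusted p = 0.399).

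Among beta genes, Pcdhb9 and Pcdhb16 rose most. Pcdhb9 stood at 50.4, 49.9, 30.9 and 58.7 CPM in CD249+ libraries of mice 2, 7, 8 and 10, against 9.86, 9.67, 5.76 and 10.7 CPM in the CD249− fraction. Mouse 8 was lowest in each fraction, and the rise was 5.27-fold (log2 fold change 2.40, SE 0.24, adjusted p = 8.91e-05). Pcdhb16 stood at 23.5, 16.6, 27.2 and 37.7 CPM in the CD249+ fraction and at 3.59, 6.41, 4.17 and 4.83 CPM in the CD249− fraction. It rose by 5.52-fold, with the smallest difference in mouse 7 (log2 fold change 2.46, SE 0.28, adjusted p = 0.000173). Pcdhb9 took 21.9% ± 2.58 of the Pcdhb counts in the CD249+ fraction and 9.10% ± 2.10 in the CD249− fraction, and Pcdhb16 took 12.3% ± 3.75 in the CD249+ fraction and 4.81% ± 1.22 in the CD249− fraction. Pcdhb17, the most abundant beta row of CD249− cells, stood at 20.4, 40.9, 18 and 28.5 CPM in CD249+ libraries of mice 2, 7, 8 and 10, and at 16.1, 13.3, 16.9 and 13.9 CPM in the CD249− fraction. It took 12.5% ± 4.35 of the counts in the CD249+ fraction and 15.3% ± 2.21 in the CD249− fraction.

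The 5 other beta genes called were Pcdhb12, Pcdhb20, Pcdhb22, Pcdhb17 and Pcdhb7, at log2 fold changes of 1.49, 1.45, 1.13, 0.84 and 0.70 (adjusted p = 0.0273, 0.0276, 0.0308, 0.0273 and 0.0284). Pcdhb12 stood at 5.48 to 14 CPM in the CD249+ fraction and 2.04 to 6.09 CPM in the CD249− fraction and was higher in 3 of 4 mice, all but mouse 10, without which it gave 2.13. The other 4 were higher in 4 of 4 mice without overlap. Each of these 5 calls was lost when some libraries were left out. For Pcdhb12 these were the CD249+ library from mouse 2 or 7, the CD249− library from mouse 2, 7 or 8, and the pair of mouse 2, 7 or 8 (adjusted p = 0.0607 to 0.152). For Pcdhb20 they were the CD249+ library from mouse 8 or 10, the CD249− library from mouse 2 or 7, and the pair of mouse 2, 7 or 8 (adjusted p = 0.0574 to 0.0912). Pcdhb22 was not called without the CD249+ library from mouse 7 or 8, the CD249− library from mouse 7 or 10, or the pair of mouse 7, 8 or 10 (adjusted p = 0.0559 to 0.154), nor with mouse as a block (adjusted p = 0.0586). Pcdhb17 was not called without either library of mouse 7 or 10 or without the pair (adjusted p = 0.0629 to 0.136). Pcdhb7 was not called without the CD249+ library from mouse 7 or 10, the CD249− library from mouse 7, 8 or 10, or the pair of any of these mice (adjusted p = 0.0516 to 0.126). Blocking by mouse kept the calls of Pcdhb12, Pcdhb20, Pcdhb17 and Pcdhb7 (adjusted p = 0.0281, 0.00331, 0.0420 and 0.0276). Of the 14 beta rows not called, 10 had positive and 4 negative values. Pcdhb10 lay just outside the threshold (log2 fold change 0.81, SE 0.28, adjusted p = 0.0538), with every CD249+ library above every CD249− library, and DESeq2 and limma-voom called it (adjusted p = 0.00659 and 0.0482). Outside the threshold it was followed by Cdh26 and then by the gamma gene Pcdhga6 (log2 fold change 0.64, SE 0.24, adjusted p = 0.0752). Pcdhga6 was called by DESeq2, without the CD249− library from mouse 2 and without the pair of mouse 2 (adjusted p = 0.0102 to 0.0479).

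**Figure D4:**
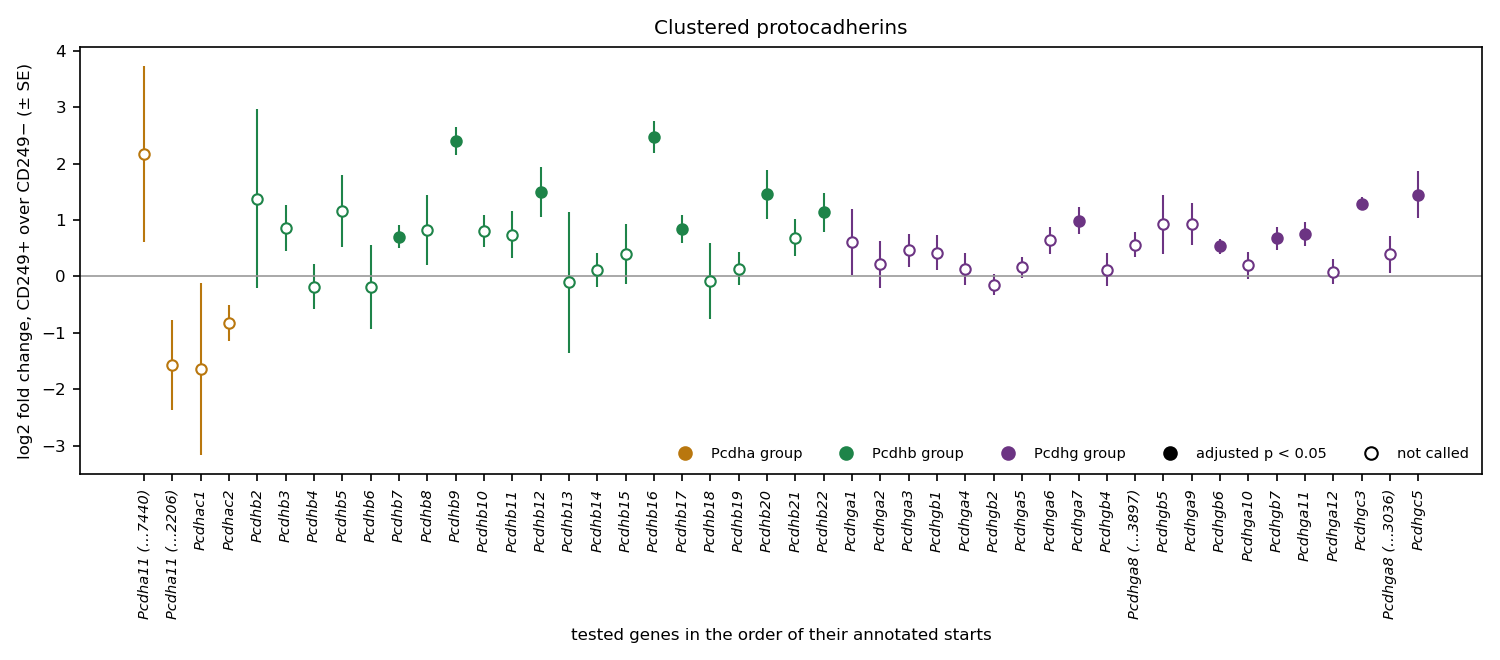
Log2 fold change of CD249+ over CD249− (± SE) for the 46 tested clustered protocadherins, in the order of their annotated starts, with filled symbols for adjusted p under 0.05. Filled symbols lie at 0.53 to 2.46 in the Pcdhb and Pcdhg groups, and 3 of the 4 Pcdha rows lie below 0.

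The alpha group was sparse, with 4 of 14 rows tested and none called by edgeR. Of the tested rows, 1 was at an unadjusted p under 0.05, again without a share of all genes to compare it with. Pcdhac2, a C-type gene, made up 87.1% ± 5.70 of the Pcdha counts in the CD249+ fraction and 92.7% ± 4.97 in the CD249− fraction. It stood at 44.3, 16.5, 22.4 and 23.1 CPM in CD249+ libraries of mice 2, 7, 8 and 10, against 67.4, 48.8, 28.1 and 44.2 CPM in the CD249− fraction. It was lower in the CD249+ fraction of 4 of 4 mice, with overlap between the CD249+ library from mouse 2 and the CD249− libraries of mice 8 and 10 (log2 fold change -0.83, SE 0.33, adjusted p = 0.0828). With mouse as a block it was called lower (log2 fold change -0.86, adjusted p = 0.00863), as it was by DESeq2 (adjusted p = 0.0384), without the CD249+ library from mouse 2, without the CD249− library from mouse 8, and without the pair of mouse 2 (adjusted p = 0.0109 to 0.0393). Pcdhac1 and the 2 rows named Pcdha11 stayed at or below 3.79 CPM in each library.

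Proteins that bind, cut or control cadherins were examined as lists. Of 15 tested catenins and adherens junction partners, 3 were higher, 6 lower and 6 not called in the CD249+ fraction, with a median log2 fold change of 0.02, against -0.02 for all genes tested. These are 20% higher and 40% lower, where 16.9% and 13.9% of all genes tested were called. Blocking by mouse gave 5 higher and 7 lower, with Ctnna3 and Vcl added to the higher ones and Ctnnb1 to the lower ones. In that fit 19.3% of all genes tested were called higher and 17.1% lower. Arvcf, a relative of p120-catenin that binds classical cadherin tails, stood at 92.8 ± 17.9 CPM in the CD249+ fraction and 13.3 ± 3.68 CPM in the CD249− fraction (log2 fold change 2.81, SE 0.22, adjusted p = 1.86e-05). Ctnnd2, the delta-catenin gene of neurons, stood at 7.21 ± 2.50 CPM in the CD249+ fraction and 0.723 ± 1.01 CPM in the CD249− fraction (log2 fold change 3.28, adjusted p = 0.0400), and that call was lost without any single CD249+ library, the CD249− library from mouse 2 or 7, or the pair of mouse 2, 7 or 8 (adjusted p = 0.0583 to 0.124). The log2 fold change of Ctnnd2 was 4.37 to 4.90 with limma-voom, with the mouse block and without the CD249− library or the pair of mouse 10. Ctnnd2 stood at 0.697, 0.0350, 0 and 2.16 CPM in CD249− libraries of mice 2, 7, 8 and 10. It passed the count filter through the CD249+ libraries, could hardly have been called lower, and counts toward the share called higher. The nectin gene Pvrl2 was the third that rose (log2 fold change 1.07, adjusted p = 0.0210). Its call was lost without the CD249+ library from mouse 8 or 10 and without the pair of mouse 7 or 10 (adjusted p = 0.0510 to 0.0661).

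The more abundant catenins were lower where Cdh11 and Cdh4 were higher. Ctnna1, the alpha-catenin gene, stood at 499 ± 82.7 CPM in the CD249+ fraction and 791 ± 128 CPM in the CD249− fraction (log2 fold change -0.66, SE 0.15, adjusted p = 0.00855). Jup, the plakoglobin gene, stood at 725 ± 235 CPM in the CD249+ fraction and 1452 ± 337 CPM in the CD249− fraction (log2 fold change -1.0, adjusted p = 0.00946), and the p120-catenin gene Ctnnd1 at 214 ± 51.1 CPM in the CD249+ fraction and 335 ± 67.2 CPM in the CD249− fraction (log2 fold change -0.65, adjusted p = 0.0259). Ctnnb1, the beta-catenin gene, stood at 534 ± 70.2 CPM in the CD249+ fraction and 687 ± 81.2 CPM in the CD249− fraction. It was not called in this fit (log2 fold change -0.36, adjusted p = 0.0620), but was with mouse as a block, DESeq2, library size alone, without the CD249+ library from mouse 2 and without the pair of mouse 2 (adjusted p = 0.00257 to 0.0433). The afadin gene Mllt4 and Pkp4, which encodes plakophilin-4, fell by 0.80 and 0.95 on the log2 scale (adjusted p = 0.00138 and 0.00157), and the nectin-3 gene Pvrl3 by 0.48 (adjusted p = 0.0435). The Ctnnd1 call was lost without the CD249+ library from mouse 7, 8 or 10, without the CD249− library from mouse 2 or 8, and without the pair of mouse 7, 8 or 10 (adjusted p = 0.0511 to 0.132). For Pvrl3 it was lost without the CD249+ library from mouse 7, 8 or 10, the CD249− library from mouse 2, 7 or 10, or both libraries of mouse 2, 7 or 10 (adjusted p = 0.0560 to 0.166). The calls of Jup, without the pair of mouse 8 or 10, and of Ctnna1, without those of mouse 10, were also lost (adjusted p = 0.0513 to 0.0532). Blocking by mouse kept the calls of Ctnna1, Jup, Ctnnd1 and Pvrl3 (adjusted p = 0.00014, 2.19e-05, 0.000276 and 0.0131). Endothelial cells also express these catenins, and the part of the lower endothelial sum was not tested.

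**Figure D5:**
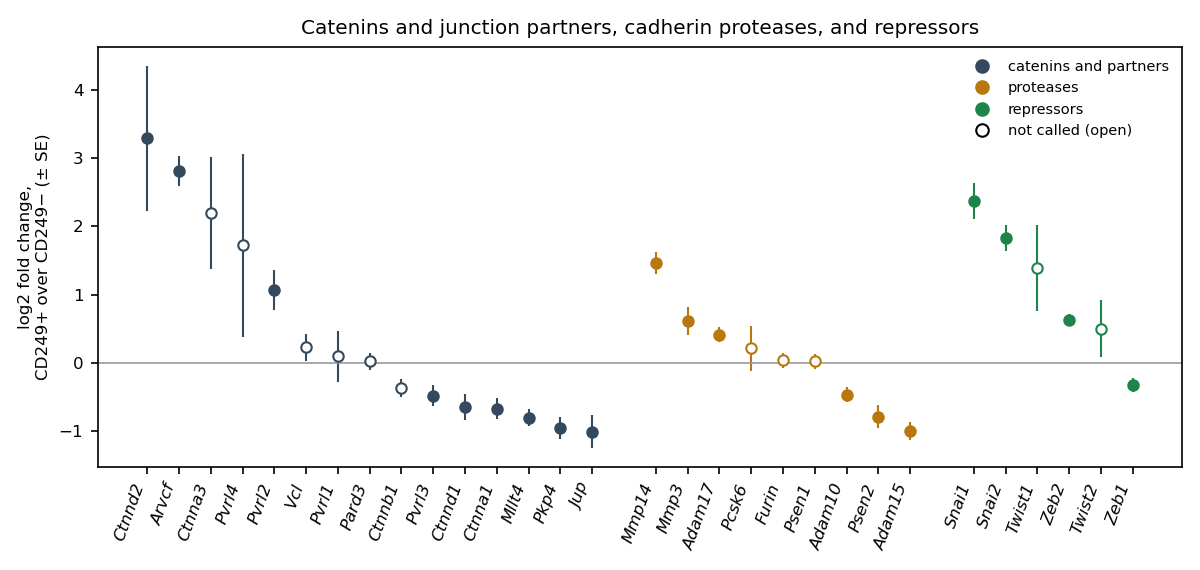
Log2 fold change of CD249+ over CD249− (± SE) for catenins and junction partners, cadherin proteases and cadherin repressors, with filled symbols for adjusted p under 0.05. Arvcf, Mmp14, Snai1 and Snai2 lie above 1, and Jup, Ctnna1, Ctnnd1 and Adam15 lie below 0.

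Of 6 repressors of cadherin transcription, 3 rose, 1 fell and 2 were not called, with a median log2 fold change of 1.01 (50% higher and 16.7% lower, against 16.9% and 13.9% of all genes tested). Snai1 stood at 18.3 ± 3.19 CPM in the CD249+ fraction and 3.55 ± 1.17 CPM in the CD249− fraction (log2 fold change 2.37, adjusted p = 0.000146), and Snai2 at 33.7 ± 6.90 CPM in the CD249+ fraction and 9.49 ± 1.72 CPM in the CD249− fraction (log2 fold change 1.83, adjusted p = 0.000109). Both encode zinc finger proteins known to repress E-cadherin in epithelial cells. Zeb2 rose by 0.63 (adjusted p = 0.000476), while Zeb1 fell by 0.32 on the log2 scale (adjusted p = 0.0449). The Zeb1 call was lost with DESeq2 size factors, with no count filter, without the CD249+ library from mouse 2, 8 or 10, without any single CD249− library, and without the pair of any mouse (adjusted p = 0.0525 to 0.170).

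Of 9 proteases that cut cadherins or their precursors, 3 rose, 3 fell and 3 were not called, with a median of 0.04 (33.3% higher and 33.3% lower, against 16.9% and 13.9% of all genes tested). The membrane matrix protease gene Mmp14 rose to 368 ± 76.4 CPM in the CD249+ fraction, against 134 ± 19.1 CPM in the CD249− fraction (log2 fold change 1.46, adjusted p = 0.000171). Adam10, which encodes the main sheddase of classical cadherins and gamma protocadherins, fell by 0.46 on the log2 scale (adjusted p = 0.00776), Adam15 by 0.99 (adjusted p = 0.000398) and the presenilin gene Psen2 by 0.78 (adjusted p = 0.00635). The Adam10 call was lost without the pair of mouse 7 and the Psen2 call without those of mouse 10 (adjusted p = 0.0549 and 0.0508). The other calls were Adam17 and Mmp3, higher by 0.41 and 0.62 (adjusted p = 0.0144 and 0.0449). Adam17 was not called without the pair of mouse 7, 8 or 10 (adjusted p = 0.0512 to 0.0948). Mmp3 was not called with library size alone, without the CD249+ library from mouse 7, 8 or 10, the CD249− library from mouse 2, 8 or 10, or the pair of mouse 7, 8 or 10 (adjusted p = 0.0563 to 0.237). Blocking by mouse kept the calls of Adam17 and Mmp3 (adjusted p = 0.0142 and 0.00777). Of 9 regulators of the protocadherin clusters, none rose and 2 fell, with a median of -0.18. These 2 genes are 22.2% of the list, against 13.9% of all genes tested. Wapl was also lower with mouse as a block (adjusted p = 0.0317). The 2 genes of the unblocked fit were Ctcf and the cohesin gene Rad21, which fell by 0.44 and 0.36 on the log2 scale (adjusted p = 0.0140 and 0.0194), and their products bind the cluster promoters in neurons. The Ctcf call was lost without the pair of mouse 7 or 8, and the Rad21 call without the CD249+ library from mouse 2 or 8, the CD249− library from mouse 2, or both libraries of mouse 2, 8 or 10 (adjusted p = 0.0531 to 0.104).

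Other families with cadherin repeats were listed together with Fjx1, whose product has no such repeats. The list held 28 rows, of which 15 were tested, 4 rose, 1 fell and 10 were not called. Its median was 0.31 (26.7% higher and 6.67% lower, against 16.9% and 13.9% of all genes tested). The mouse block gave 6 higher and 2 lower, where 19.3% and 17.1% of all genes tested were called. Fjx1 and Cdhr1 were added to the higher ones and Clstn1 to the lower ones (adjusted p = 0.0188 to 0.0300). Cdhr1 stood at 0 CPM in the CD249− libraries of mice 2, 7 and 8, so it passed the count filter through the CD249+ libraries. Fat3, a giant cadherin of the Fat family, stood at 6.35 ± 3.74 CPM in the CD249+ fraction and had 4 counts in all CD249− libraries together, against 747 counts in CD249+ libraries (adjusted p = 0.000428). The calsyntenin gene Clstn3 had 85 counts in CD249+ libraries and none in CD249− libraries (adjusted p = 0.00310). Fat3 and Clstn3 passed the count filter only through the CD249+ libraries, so they could hardly have been called lower. Both count toward the share called higher. Another calsyntenin gene, Clstn2, stood at 5.79 ± 3.28 CPM in the CD249+ fraction and 0.298 ± 0.466 CPM in the CD249− fraction (adjusted p = 0.0183), and its call was lost without the pair of mouse 2, 8 or 10 (adjusted p = 0.0526 to 0.0631). Clstn2 stood at 0, 0.981, 0 and 0.210 CPM in CD249− libraries of mice 2, 7, 8 and 10. It too passed the count filter through the CD249+ libraries, could hardly have been called lower, and counts toward the share called higher. Celsr2, a planar polarity cadherin, was lower, at 10.1 ± 3.36 CPM in the CD249+ fraction and 22.6 ± 4.86 CPM in the CD249− fraction (log2 fold change -1.16, adjusted p = 0.00741), and was not called without the pair of mouse 8 (adjusted p = 0.0611). The fourth that rose was Dchs2 (log2 fold change 2.41, adjusted p = 0.0344), which was not called with limma-voom, without the CD249+ library from mouse 2, 7 or 8, the CD249− library from mouse 2, 7 or 10, or the pair of mouse 2 or 7 (adjusted p = 0.0613 to 0.139). Without the CD249− library from mouse 8 the log2 fold change of Dchs2 was 3.12.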

How the data were processed

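RNA of sorted lung fibroblasts was reverse transcribed from oligo(dT) with the SMART-Seq V4 kit from 10 ng, made into Nextera XT libraries and read as single reads of 75 bp, per the labels' protocols. Strand is not marked, so antisense partners cannot be told apart. The deposited table holds the authors' estimated counts (expected counts, 12% not whole) for 25509 gene rows, with 92 spike-in rows at 0 that were left out. Without saying for what, the submitters' processing notes list R 3.6.3, RSEM 1.2.28, bcl2fastq 2.20, DESeq2 1.26.0 and STAR 2.6.1. They also list the human build GRCh38, while the identifiers are mouse, so the sources used here do not give the build that was counted on. Exon lengths and coordinates are from GENCODE M21 (GRCm38), matched without the version suffix, and promoters from RefSeq (GRCm38.p6).

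Counts were rounded, filtered by edgeR's filterByExpr and scaled by TMM, and edgeR 4.0.16's quasi-likelihood F test (R 4.3.3, two-sided, group only) was run on all 14524 genes kept of 18552 with any count. Standard errors are the size of the log2 fold change over the root of F. The processing notes name no block. The 2 fractions of a mouse share a lung. Over genes, libraries' deviations from their fraction's mean had correlations of 0.132 to 0.285 within a mouse and -0.212 to 0.0515 between mice, so the mouse numbers pair the libraries. The main fit left this pairing out, and the blocked fit was an alternative. SE and adjusted p are from the unpaired fit unless another setting is named. Members and lists were chosen with earlier results of these data known. Values in every library are given for members that were called or averaged 5 CPM or more in their higher fraction, with clustered genes by range beyond up to 3 a group, and the 3 members on each side of the threshold are named. Of other lists, up to 4 called genes were to be named. Low members, Pcdhgb5, Ctnnb1 and the further genes of those lists were added after their values were seen. Amplified reads are not independent molecules, so floors cover counting error only. Alternatives used other scaling, filters, DESeq2 1.42.0, limma-voom 3.58.1, the block and left-out libraries or mice.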

Additional observations from a re-analysis of the deposited data

Results flagged for a closer look

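For 7 values 1 library stood far from the other 3 of its fraction, judged by the gap to the nearest library as a share of the range. Of 102 groups of 4 libraries looked at, about 1 in 20 is picked out by chance. Cdh1 stood at 65.8 CPM in the CD249+ library of mouse 10, against 5.4 to 14.7 CPM in the other CD249+ libraries. In the same fraction Cdh6 stood at 7.5 CPM in mouse 7, against 3.36 to 3.6 CPM. Among clustered genes, Pcdhga11 stood at 15.8 CPM in the CD249+ library of mouse 10, against 23 to 23.1 CPM. The Pcdhga8 row ENSMUSG00000103897.1 stood at 21.1 CPM in that library, against 14.6 to 15.6 CPM. In CD249− cells, mouse 8 had 13.4 CPM of Pcdhgb1, against 6.37 to 7.11 CPM, and 1.63 CPM of Pcdhgb5, against 11.6 to 13.3 CPM. Pcdhgb7 stood at 26 CPM in the CD249− library of mouse 7, against 16.4 to 16.7 CPM in the others. The 5 Pcdhg rows share constant exons, and the part of the division of reads among them was not tested.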

How the results depend on the processing

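Under 19 alternatives, 9 of the 24 called members kept their call in each, namely Cdh11, Cdh4, Cdh22, Pcdh1, Pcdh17, Pcdhb9, Pcdhb16, Pcdhga7 and Pcdhgc3. Leaving out 1 library or both libraries of a mouse gave 10 to 19 members higher, 2 to 4 lower and 2978 to 4458 genes called at adjusted p under 0.05, the lowest without both libraries of mouse 8, where fewer samples entered the fit. With DESeq2 24 members were higher, Pcdhb10, Pcdhga6 and Pcdhga9 being added, and 5 lower, Cdh26 and Pcdhac2 being added. DESeq2 also called more of all 14524 genes tested, 2858 higher and 2352 lower, against 2455 and 2013 in the main fit. With mouse as a block 21 were higher, 19 of them shared with the fit without the block, and 4 lower, and beside results given with a blocked value it changed no other call among the members, and it changed no call of the protease and repressor lists. With library size alone the median log2 fold change of all genes tested was -0.12, against -0.02, and 43.9% of calls were higher, against 54.9%, and 19 members were higher and 4 lower. With this scaling Pcdhga12 turned to -0.0107. The other turns of sign came from left-out libraries, in members that were not called. Over these settings the log2 fold change ran from -0.0944 to 0.520 for Cdh13, -0.0780 to 0.313 for Pcdhb14, -0.035 to 0.407 for Pcdhb19, -0.532 to 0.0834 for Pcdhb4, -0.155 to 0.233 for Pcdhga12, -0.115 to 0.436 for Pcdhga2, -0.0562 to 0.478 for Pcdhga4, -0.349 to 0.0460 for Pcdhgb2 and -0.113 to 0.410 for Pcdhgb4, and the cause was not tested. Low counts limit Cdh16, Cdh24, Cdh26 and most Pcdha rows.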
